A study of Mus musculus with 8 samples.

Results

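Cytosolic ribosomal protein genes encode the protein subunits of the ribosome that translates nuclear-encoded mRNA. They were taken by symbol: Rpl or Rps followed by a number and, where present, one letter (a, x, y or l) and a further number, together with Rplp0, Rplp1, Rplp2 and Rpsa, and without symbols that carry -ps, the mark of a named pseudogene. By this rule 88 of the 46517 genes of the bulk RNAseq table were members, 51 of the large subunit and 37 of the small subunit, and 81 of the 24051 genes of the single nucleus (sn)RNAseq table. The annotation (GENCODE vM21, mm10) classed 83 of the 88 as protein coding. The other 5 (*Rps12l1*, *Rps12l2*, *Rps3a2*, *Rps3a3* and *Rps4l*) are classed as processed pseudogenes, of which *Rps4l* is marked as transcribed, and they were kept because the rule is by symbol. The 7 members that were analysed in bulk RNAseq alone were these 5, *Rpl10l* and *Rpl13*.

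The samples were adult mouse hippocampi, from 12-week-old mice by the methods of the study. Mutant mice were Wls fl/-;Gfap-Cre and control mice were Wls fl/+;Gfap-Cre, so that both genotypes carried Gfap-Cre and 1 floxed allele of *Wls*, which encodes the protein that carries Wnt ligands to the cell surface for secretion. Recombination thus depended on cells with a history of *Gfap* promoter activity, and the control retained an intact allele. For each assay there were 2 mutant and 2 control mice, with 1 library per mouse. Bulk RNAseq libraries held 59786165 and 79576196 expected counts in the mutant and 56002381 and 66684515 in the control. The snRNAseq samples held 5304 and 10460 mutant nuclei with a median of 4128 and 6771.5 UMIs (unique molecular identifiers, each marking one captured RNA molecule), and 6469 and 7192 control nuclei with a median of 5167 and 7544.5 UMIs.

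Genes that check the labels were examined first. *Wls* was at 3.61 and 6.86 CPM (counts scaled to a common library total) in the mutant bulk libraries and at 13.3 and 13.1 in the control libraries, and at 6.96 and 11.7 against 20.7 and 27.4 in all nuclei. *Prox1*, a transcription factor of dentate granule cells, was at 31.9 and 18.8 CPM against 165.8 and 175.5 in bulk. The labels give single male mice for bulk RNAseq, but *Xist*, the RNA that coats the silenced X of female cells, reached 230 CPM in mutant replicate 2 and 521.4 CPM in control replicate 2, against 1.42 and 1.05 in both replicates 1. The Y-linked *Ddx3y* was at 0.352 and 0.343 CPM in the same replicates 2 and at 53.6 and 58.7 in replicates 1. Each genotype thus held 1 library of either pattern, and the group comparison is balanced for it. In nuclei, *Ddx3y* was at 31.6 to 53.8 CPM and *Xist* at 1.6 to 3.49 CPM in all 4 samples. The titles give replicate 2 of each genotype the same number in both assays, so that these bulk and snRNAseq samples share a number and differ in this pattern, and whether the bulk libraries are labelled correctly is not known. *Ttr*, the main product of the choroid plexus, differed between libraries of one genotype, at 625.1 and 4960 CPM in the mutant and 85.5 and 32 in the control bulk libraries. The snRNAseq samples shared 8 to 21 nucleus barcodes in each pair.

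The cell types of the nuclei are those deposited with the matrices and are named here as labelled (GC, CA1, CA2, CA3, MC, OPC and so on). Of 21 labels, 18 held at least 10 nuclei in every sample and were tested. Some labels go against markers. Nuclei labelled excitatory neurons 19 held *Dcn* of fibroblasts at 320.5 CPM over all samples, with *Slc17a7* of excitatory neurons at 53 CPM. Their summed meninges markers were at 742.4 CPM, against 89.7 CPM in excitatory neurons 10. *Gja1*, from the list of astrocyte markers, was at 491.1 CPM. The summed astrocyte markers, at 1012 CPM, were close to those of excitatory neurons 13 (1077 CPM) and far below those of astrocytes (12013 CPM). Nuclei labelled inhibtory neurons 14 (spelled as deposited) held *Flt1* and *Cldn5* of endothelial cells at 872.5 and 627.4 CPM, with *Gad1* of inhibitory neurons at 25.3 CPM. Neither name is read here as a cell type. Inhibtory neurons 15, with 1 nucleus in control replicate 2, were not tested. The labels CP and EC were also not tested, since at least 1 sample of each held no nucleus.

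A ribosome holds 1 copy of nearly every one of these proteins, so their mRNAs are made in similar amounts and are among the most abundant of a cell. Their transcripts begin with a short run of pyrimidines, the 5′ terminal oligopyrimidine tract, through which growth signals acting by mTOR and Larp1 set their translation. Their genes are mostly short, and because the mRNAs are abundant in the germ line, reverse-transcribed copies of them (processed pseudogenes) are scattered through the genome. A read from a ribosomal protein mRNA can therefore match several annotated genes.

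Such copies matter for these data because the expected counts divide a read among the genes it matches. The first 60 coding bases of 3 members are shown beside the same stretch of the copies that took most of their reads, 5′ to 3′, with a base that differs from the member in capitals.
Rps12: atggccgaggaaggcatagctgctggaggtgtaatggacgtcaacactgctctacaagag
Rps12l1: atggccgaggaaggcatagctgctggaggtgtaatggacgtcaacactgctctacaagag
Rps13: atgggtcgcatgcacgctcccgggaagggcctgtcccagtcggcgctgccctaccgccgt
Rps13-ps1: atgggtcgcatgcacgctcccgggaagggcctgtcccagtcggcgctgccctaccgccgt
Rps13-ps2: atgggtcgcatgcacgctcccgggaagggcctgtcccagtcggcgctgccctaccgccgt
Rpl3: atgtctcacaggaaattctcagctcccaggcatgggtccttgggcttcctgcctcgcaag
Rpl3-ps1: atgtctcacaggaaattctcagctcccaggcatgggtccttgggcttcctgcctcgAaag
*Rps12* (chr10:23785183-23787275, minus strand) and *Rps12l1* (chr7:56014016-56014414, plus strand) were identical over all 399 coding bases. *Rps13* (chr7:116331505-116334195, minus strand) differed at 2 of 456 coding bases from *Rps13-ps1* (chr8:87047689-87048226, plus strand) and at 0 of 453 from *Rps13-ps2* (chr7:88530446-88530898, minus strand). *Rpl3* (chr15:80077791-80091868, minus strand) differed at 2 of 1209 bases from *Rpl3-ps1* (chrX:13202571-13203780, plus strand). All coordinates are of mm10.

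The first transcribed bases of the members were read from the RefSeq promoter table (GRCm38.p6), in which 63 members had an entry that could be read. A start at C followed by at least 4 bases that are each C or T, on the strand of the gene, was found in 13 of the 63 (20.6%), against 2.97% of 26962 other genes, 1 of 17 translation factors and 0 of 69 mitochondrial ribosomal proteins. Windows of 10 bases before to 20 bases after the start are shown for 4 abundant members with such a start, with the pyrimidine run in capitals.
Rps27: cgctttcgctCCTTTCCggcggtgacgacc
Rps21: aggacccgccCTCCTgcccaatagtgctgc
Rplp2: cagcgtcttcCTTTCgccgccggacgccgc
Rps10: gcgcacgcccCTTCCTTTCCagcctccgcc
They lie at chr3:90213629-90213658 (minus strand), chr2:180257369-180257398 (plus strand), chr7:141447641-141447670 (plus strand) and chr17:27635225-27635254 (minus strand). RefSeq gives *Rps21* another start in the window chr2:180257439-180257468 (plus strand), which has no such run and is not shown. Members without the match include starts that the annotation may place a few bases away, which was not tested.

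In bulk RNAseq most members were abundant. TPM values are corrected for transcript length, which allows levels of different genes to be set side by side. The median member was at 256.5 TPM (mean of 4 libraries), 69 of 88 members were at 100 TPM or more, and 5 were below 1 TPM (*Rpl10l*, *Rpl39l*, *Rpl3l*, *Rps12* and *Rps12l2*). The highest was *Rplp1*, an acidic protein of the ribosomal stalk, at 1377 and 1300 TPM in the mutant and 1368 and 1437 TPM in the control. *Rpl41*, which encodes the smallest protein of the large subunit, followed with 853 and 750.2 TPM against 791.1 and 764.2. *Rps14* (637.9 and 817.9 against 734.2 and 787.3 TPM), *Rps27* (808.2 and 711.2 against 675.4 and 668.9 TPM) and *Rps15* (752.6 and 662.1 against 677.6 and 717.9 TPM) completed the 5 highest. In 4 of these 5 the mutant and control libraries overlapped, while both mutant libraries were above both control libraries for *Rps27*. Summed with its near-identical annotated copies, *Rps27* was at 125.2 and 105.5 CPM in the mutant against 108.2 and 102.3 CPM in the control, and the genotypes overlapped.

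The other stalk proteins were lower than *Rplp1*. *Rplp2* was at 462.6 and 486.8 TPM in the mutant and 522.4 and 518.8 in the control. *Rplp0*, the scaffold to which both bind, was at 160.6 and 167.2 against 199.6 and 184 TPM. In TPM the 2 mutant libraries lay below the 2 control libraries for both genes, by less than 1.5-fold, but in CPM, the scale of the tests, *Rplp2* overlapped, at 92.6 and 87.1 against 92.5 and 90.2 CPM. *Rpsa*, a small-subunit protein also known as the laminin receptor, was at 118.2 and 130.2 against 127.8 and 138.9 TPM.

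All members together took 0.743% and 0.752% of the expected counts of the mutant libraries and 0.764% and 0.766% of those of the control libraries. The difference, a ratio of mutant to control of -0.03 on the log2 scale, was small beside the level, although both mutant libraries lay below both control libraries, also among replicates 1 and among replicates 2 taken separately (two-sided exact permutation test p = 0.333, the smallest p that 2 against 2 samples allow). The mitochondrially encoded share of counts was 5.51% and 4.84% in the mutant against 4.64% and 4.64%, and its part in the difference was not tested. Together with their near-identical copies, the members took 1.07% and 1.05% against 1.08% and 1.06%, and the genotypes overlapped.

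No member was called between genotypes in bulk RNAseq. Of 84 members tested among 20687 genes, 0 passed an FDR of 0.05 (Benjamini-Hochberg; edgeR quasi-likelihood test), where 1.21% of all genes passed, and 0 passed it with a fold change (FC) above 3, where 0.218% of all genes did. DESeq2 also called 0 of 83 members, where 8.42% of all genes passed. An unadjusted p was under 0.05 in 5 members, where 18.8% of all genes had one. The median log2 FC of the members was -0.01 and that of all genes tested 0.01, with 45 members lower and 39 higher in the mutant. Both mutant libraries were below both control libraries in 10 members, whereas 25.4% of all genes tested had this order. They were above both control libraries in 17 members, whereas 25.8% of all genes had that order. With 1 library left out, its group holds 1 library, and the spread comes from the other group alone. Without mutant replicate 2 the count of members called was 8 of 84 (9.52%; 3 lower, 5 higher), where 3.79% of all genes passed, and without mutant replicate 1 it was 1, where 8.61% of all genes passed. In bulk tissue, fewer cells of a type and less RNA per cell cannot be told apart. Markers of other cells moved with the genotype: the 5 markers of dentate granule cells all fell (median log2 FC -2.73; summed 115.3 and 101 CPM against 451.4 and 460 CPM), and the 10 markers of choroid plexus, led by *Ttr*, had higher values in both mutant libraries (median 3.76, 0 called; summed 1210 and 8493 CPM against 321.8 and 205.4 CPM). Their part in the member values was not tested.

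The 3 members with the largest log2 FC in either direction were *Rpl3* and *Rps13*, which have near-identical annotated copies, and *Rpl3l*, which has none. *Rpl3*, a core protein of the large subunit near the peptidyl transferase centre, was at 84 and 172.7 TPM in the mutant and 156.8 and 390.9 TPM in the control, with a log2 FC of -1.02 ± 0.50 (SE; FDR 0.348). The 2 libraries of one genotype differed as much as the genotypes did. Its copy *Rpl3-ps1* took 18334 and 21887 expected counts in the mutant and 17541 and 11113 in the control, the reverse order of *Rpl3* in control replicate 2. Summed with its copies, *Rpl3* was at 359.9 and 381.4 CPM against 409.2 and 399.4 CPM, with a log2 FC of -0.10 (FDR 0.365).

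*Rps13*, a small-subunit protein, was at 38.6 and 70.8 TPM in the mutant and at 56.7 TPM in control replicate 1, but at 0.4 TPM in control replicate 2, and its log2 FC was 1.02 ± 1.46 (SE; FDR 0.769). In that library *Rps13-ps1* held 4395 expected counts, against 1622, 2362 and 1633 in the others, and *Rps13-ps2* held 477.1, against 2320, 2461 and 1909. The sum over the *Rps13* family was at 76.9 and 79.4 CPM in the mutant and 77.8 and 74 CPM in the control. *Rps12* was listed at 0 in all 4 libraries, while *Rps12l1*, identical to it over the coding bases, was at 501 and 450.6 TPM against 463.1 and 437.2.

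**Figure D1:**
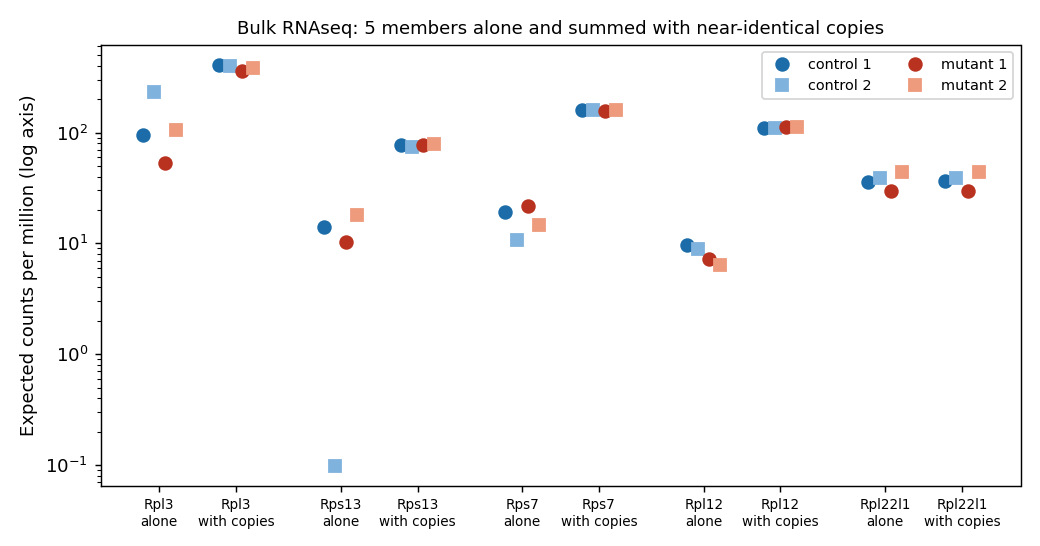
CPM of expected counts (log axis) of 5 members in the 4 bulk RNAseq libraries, for the member alone and for the sum over the member and its near-identical annotated copies; each point is 1 library. *Rps13* alone spans a 182.6-fold range, set by control replicate 2, and its family sum a 1.07-fold range.

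The plot of members alone and with their copies shows the same for *Rps7* and *Rpl12*. *Rps7* alone was between 10.8 and 21.6 CPM, and its family sum was between 156 and 160.4 CPM. *Rpl12*, which helps to form the base of the stalk, had the lowest FDR among the members (log2 FC -0.44 ± 0.13, SE; FDR 0.180) at 12.4 and 12.5 TPM against 20.4 and 17.7. Its own counts were 7.15% of those of its family, and the family log2 FC was 0.05 (FDR 0.654). *Rpl5*, which binds 5S ribosomal RNA, was the third lowest member (log2 FC -0.27 ± 0.10, SE; FDR 0.237), and its family log2 FC was -0.02. At the upper end were *Rpl10* (log2 FC 0.31 ± 0.12, SE; FDR 0.265; family sum -0.04) and *Rpl3l* (0.77 ± 0.44, SE; FDR 0.418), which was at 0.38 to 0.81 TPM.

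Across the 74 families that could be summed, the ratio of the highest to the lowest library had a median of 1.17 for the member alone, with 5 members above 1.5, and a median of 1.09 for the family, with a highest value of 1.498. The range narrowed in 51 families and widened in 16. The widest family range was that of *Rpl22l1*, a paralog of *Rpl22*, which had a range of 1.49-fold alone and 1.498-fold with its copy, at 135.1 and 206.7 TPM in the mutant and 172.5 and 188 TPM in the control. In 26 families the member itself held less than 50% of the counts. The family log2 FC was lower in 33 and higher in 41 families.

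In nuclei the members were far rarer. snRNAseq captures nuclear and nascent RNA, and reads in introns count. Members took 0.145% and 0.175% of all UMIs in the mutant samples and 0.214% and 0.238% in the control samples. A nucleus held a mean of 7.21 and 12.8 member UMIs in the mutant and 12.9 and 20.4 in the control, summed over all members, so that a single member was mostly unseen in a single nucleus.

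The share differed between cell types. In control samples of the 18 tested types it was lowest in MC (0.159% and 0.153%), CA2 (0.16% in both) and CA1 (0.154% and 0.176%), which did not differ beyond the spread between the 2 samples, and CA3 was close to them (0.167% and 0.172%). GC were higher (0.27% in both). Glia were higher again, with 0.365% and 0.301% in astrocytes, 0.366% and 0.318% in OPC, 0.362% and 0.392% in oligodendrocytes and 0.419% and 0.382% in microglia, where microglia lay above astrocytes and OPC and the other neighbours in this order overlapped. Nuclei labelled inhibtory neurons 14 (0.578% and 1.03%) and excitatory neurons 19 (0.603% and 0.822%) had the highest shares of the 18 tested types. The few nuclei labelled EC were at 3.91% (9 nuclei, control), 1.6% (4 nuclei, mutant) and 2.3% (11 nuclei, mutant).

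The glial types with a high share were shallow. CA1 nuclei held a median of 8215 and 12164 UMIs in the control samples, astrocytes 1986 and 3440, and oligodendrocytes 1727 and 2339. Per nucleus, the mean number of member UMIs in the control was 14 and 23.4 in CA1, 13.2 and 21.9 in GC, 8.31 and 10.9 in astrocytes and 6.97 and 9.7 in oligodendrocytes, so these glia held fewer member UMIs per nucleus. Within a type and sample, the share was lower in the third of nuclei with most UMIs than in the third with fewest in 66 of 72 cases. How far free RNA in the droplets, which adds to every nucleus, sets these shares was not tested.

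The share of UMIs was lower in the mutant than in the control in nearly every cell type. Both mutant samples lay below both control samples in 17 of the 18 types tested (two-sided exact permutation p = 0.333 for each, the smallest possible), and in inhibtory neurons 14 the samples overlapped. The mean ratio of mutant to control over the 18 types was 0.744 (-0.43 on the log2 scale). The types come from the same samples, so a shift of a whole sample would recur in each, and the 18 are not independent results. In GC the share was 0.165% and 0.195% in the mutant against 0.27% and 0.27% in the control, a ratio of 0.665, from 90 and 463 mutant and 2336 and 2007 control nuclei. In astrocytes it was 0.214% and 0.24% against 0.365% and 0.301% (ratio 0.683), and in oligodendrocytes 0.232% and 0.293% against 0.362% and 0.392% (ratio 0.697). In CA1 it was 0.13% and 0.148% against 0.154% and 0.176% (ratio 0.845), where mutant replicate 2 and control replicate 1 were close. The lowest ratio was in excitatory neurons 19 (0.4), from 19 and 64 mutant and 33 and 19 control nuclei.

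**Figure D2:**
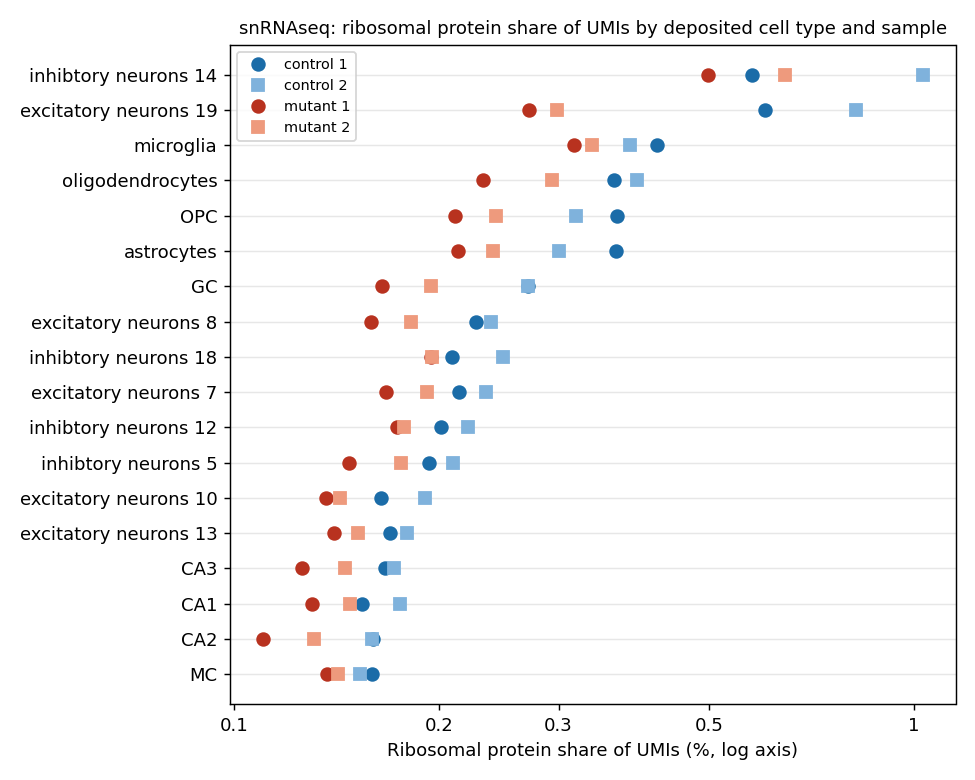
Share of UMIs (%, log axis) that fell on ribosomal protein genes, by deposited cell type with at least 10 nuclei in every sample; each point is 1 snRNAseq sample. Mutant samples lie left of control samples in 17 of 18 types, and neurons other than GC lie mostly below 0.25%.

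Median depth was lower in the mutant than in the control in the mean of each of the 18 types, with a ratio of mutant to control from 0.561 in MC to 0.923 in GC. In MC both mutant samples (5560 and 9598 UMIs) lay below both control samples (10391.5 and 16644.5 UMIs), and in the other 17 types the samples overlapped. In GC median depth was 4241.5 UMIs in mutant replicate 1 (share 0.165%) and 4628 in control replicate 1 (0.27%), and 7126 in mutant replicate 2 (0.195%) and 7688 in control replicate 2 (0.27%). Among nuclei with more UMIs than the median of their type and sample, GC were at 0.135% and 0.183% in the mutant against 0.244% and 0.251% in the control, and astrocytes at 0.203% and 0.222% against 0.343% and 0.285%. The part of depth in the difference was not tested further. The mitochondrially encoded share of UMIs, 0.039% and 0.057% against 0.047% and 0.061% over all nuclei, overlapped between genotypes, as did that of *Malat1*, an abundant nuclear RNA, at 8.6% and 9.6% against 8.6% and 11.3%. Within types they did not always overlap. The *Malat1* share was higher in both mutant samples in astrocytes (15% and 14.9% against 10.5% and 14.6%), oligodendrocytes (14.6% and 13.5% against 9.82% and 13.3%) and inhibtory neurons 14, and lower in both in MC and excitatory neurons 10. The mitochondrially encoded share was lower in both mutant samples in astrocytes (0.0559% and 0.0907% against 0.0989% and 0.0912%) and excitatory neurons 19, and higher in both in MC, excitatory neurons 13 and inhibtory neurons 12. Their part in the member share was not tested. Other genes that span less than 10 kb took 13.5% and 14.9% of UMIs in the mutant against 14.6% and 17.7% in the control, with overlap, and *Malat1*, itself under 10 kb, made up most of them. This total therefore mostly follows *Malat1* and does not show how the remaining short genes moved. As single genes, those under 10 kb other than members had a median log2 FC below 0 in all 18 types, from -0.88 to -0.11. Relative to all UMIs on genes under 10 kb, member UMIs came to 1.22% and 1.44% against 1.83% and 1.49% in GC, with mutant replicate 2 near control replicate 2, and 0.987% and 1.1% against 1.86% and 1.28% in astrocytes. *Malat1* made up most of this total in both types, so these values do not set members against the remaining short genes. In astrocytes the *Malat1* share was itself higher in both mutant samples. The part of gene length in the difference between genotypes was not tested further.

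Gene by gene, no member was called in any of the 18 types. Over 1087 tests of a member in a type, 0 passed an FDR of 0.05 (edgeR quasi-likelihood test on UMIs summed per sample and type), where 0.218% of all 182213 tests passed. DESeq2 also called 0, where 0.203% of all tests passed. An unadjusted p was under 0.05 in 186 tests of a member (17.1%, against 9.31% of all tests), of which 184 were lower in the mutant. The log2 FC was negative in 916 of the 1087 tests. Both mutant samples were below both control samples in 536 tests (49.3%), where 20.6% of all tests had this order, and above them in 31, where 19.9% of all tests had that one. The median log2 FC of the members was below 0 in all 18 types, from -1.29 in excitatory neurons 19 to -0.10 in MC, and that of all genes tested was between -0.04 and 0.05. It was above 0 with 1 sample left out in 3 types, at 0.064 in inhibtory neurons 14 (-0.53 with all samples) and 0.13 in inhibtory neurons 18 without control replicate 2, and at 0.039 in MC without mutant replicate 2. Members and types are counted in the same libraries and are not independent of one another.

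Marker genes of cell types moved with the genotype in these nuclei too. The 4 markers of excitatory neurons (*Slc17a7*, *Nrn1*, *Nrgn* and *Neurod2*) had a negative log2 FC in 59 of 64 tests (92.2%) and a median below 0 in all 17 types in which any was tested, glia included, and 1 test was called lower. These counts mix excitatory types such as GC and CA1, in which the markers are the cells' own genes, with types in which they are markers of other cells. Their sum was at 116.4 and 211.5 CPM in the mutant against 313.4 and 296.7 CPM in the control in astrocytes, and at 147.9 and 232.2 against 400.3 and 352.6 CPM in oligodendrocytes, where *Nrgn* was the most abundant of them. In both types the 2 mutant samples lay below the 2 control samples. Markers of dentate granule cells were negative in 29 of 34 tests, with a median below 0 in 13 of 14 types, and the types tested include GC itself. Other lists went the other way, with 10 of 43 tests negative for microglia markers, 13 of 59 for choroid plexus and 2 of 15 for endothelial markers. The part of these markers, or of free RNA from other cells, in the member values was not tested.

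Leaving out 1 sample leaves 1 in its group, so that the spread comes from the other group alone. These fits changed the count of members called. Without control replicate 2 there were 15 calls of a member over the 18 types (1.4% of member tests, where 1.83% of all tests passed). Of these 13 were lower in the mutant and 2 were higher, both of *Rps29*, in CA3 and inhibtory neurons 12. There were 4 calls without control replicate 1 (0.339%, where 0.572% of all tests passed), 4 without mutant replicate 2 (0.371%, where 0.17% did) and 2 without mutant replicate 1 (0.169%, where 0.566% did). Without the filter on low counts there were 20 (1.39%, where 0.789% of all tests passed), all lower in the mutant. Of these 16 were among 80 members in GC (20%, where 4.09% of all genes passed). Under a replicate block there were 44 calls (4.05%, where 3.13% of all tests passed), all lower in the mutant. GC held 27 of them (34.6% of members, where 9.59% of all genes passed). The replicate numbers alone do not pair the mice. When counts were simulated to resemble GC, the test recovered 48.5% of the genes given a 2-fold change and 97% of those given a 4-fold change, so that 2-fold differences were often missed. Over the 18 types the share recovered at 2-fold was between 2% and 73.5%.

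GC had the largest number of members with separated samples, but not the largest share. Both mutant samples were below both control samples in 85.7% of the 21 members tested in excitatory neurons 19. The share was 67.9% in GC, 62% in astrocytes and 60.3% in OPC. Of 78 members tested, 70 had a negative log2 FC, with a median of -0.56 against -0.01 for all genes, and in 53 both mutant samples were below both control samples, where 26.1% of all genes had this order. The lowest FDR was that of *Rps3*, a small-subunit protein at the mRNA entry channel that also acts in DNA repair. Mutant samples held 16.7 and 27.9 CPM (7 and 94 UMIs) and control samples 49.1 and 52.8 CPM (559 and 854 UMIs), a log2 FC of -0.995 ± 0.228 (SE; FDR 0.067). *Rplp0* was at 12 and 13.4 CPM against 27 and 28.3 CPM (log2 FC -1.08 ± 0.25, SE; FDR 0.067). The 3 lowest log2 FC were those of *Rpl15* (-1.17 ± 0.38, SE; FDR 0.176), *Rps3a1* (-1.15 ± 0.28, SE; FDR 0.085) and *Rps10* (-1.09 ± 0.31, SE; FDR 0.121). Their mutant replicate 1 values rest on 4, 3 and 2 UMIs. The 3 highest were *Rps18* (0.55), *Rpl36a* (0.28) and *Rpl31* (0.23), and *Rps18* was at 28.7 and 35.9 CPM in the mutant and 19.4 and 27 CPM in the control. Markers of granule cells tested in GC summed to 495 and 506.3 CPM in the mutant against 543.1 and 538.5 CPM in the control, and those of excitatory neurons to 511.7 and 564.2 against 962.4 and 1016 CPM. Summed markers of other cells were higher in both mutant samples for CA3 (385 and 553.2 against 232.6 and 325.8 CPM), astrocytes (243.9 and 230 against 210 and 219.2 CPM) and oligodendrocytes (155.4 and 172.6 against 154.3 and 145.4 CPM). Their part in the member values was not tested.

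GC held 90 and 463 nuclei in the mutant samples against 2336 and 2007 in the control samples, and these differed in genes known to vary along the length of the dentate gyrus. *Trhr*, a receptor known from ventral granule cells, was at 59.8 and 57.9 CPM in the mutant against 6.67 and 7.48 CPM in the control (log2 FC 3.04 ± 0.22, SE; edgeR FDR 0.0016). *Lct*, known from dorsal granule cells, was at 12 and 9.51 against 25.1 and 28.3 CPM (log2 FC -1.43 ± 0.27, SE; edgeR FDR 0.036). Both genes were chosen after results of these data were known. The makeup of the granule nuclei and the genotype cannot be told apart in the GC values of the members, and the part of these genes' difference in them was not tested.

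In CA1, with the most nuclei of the types tested, 0 of 79 members and 0 of all 16785 genes tested were called. The difference from GC was not tested. Of the 79 members 69 had a negative log2 FC, the median was -0.27, and in 41 both mutant samples were below both control samples, where 21% of all genes had this order. The lowest were *Rps27l* (-0.73 ± 0.27, SE), *Rps7* (-0.68 ± 0.22, SE) and *Rpl10a* (-0.66 ± 0.22, SE), with FDRs of 0.462, 0.423 and 0.424. *Rps27l* was at 3.71 and 3.28 CPM against 6.24 and 5.34. The highest was *Rps29* (0.36), for which the samples overlapped, at 47.2 and 57.3 CPM against 26.8 and 54.3.

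Glia gave medians of -0.49 in astrocytes (61 of 71 members negative), -0.44 in oligodendrocytes (63 of 69), -0.43 in OPC (58 of 63) and -0.32 in microglia (41 of 59). The microglia median was -0.91 without mutant replicate 2, which leaves mutant replicate 1 with 13 nuclei and 68 member UMIs. In astrocytes both mutant samples were below both control samples in 44 members, where 21.3% of all genes had this order, and in oligodendrocytes in 38 members, where 19.9% did. *Rpl10a*, a large-subunit protein, was the lowest in astrocytes, at 32 and 27 CPM against 73.5 and 47.5 CPM (log2 FC -1.07 ± 0.29, SE; FDR 0.123). *Rps24*, at 40.8 and 63.2 against 119.1 and 95.9 CPM, had the lowest FDR there (-0.90 ± 0.24, SE; FDR 0.116). *Rps26* (-1.01) and *Rps13*, whose samples overlapped, followed *Rpl10a* at the lower end, and *Rps18* (0.46) and *Rpl7l1* (0.26) were at the upper end, all with an FDR above 0.05. In oligodendrocytes *Rps21* (-1.19) and *Rps13* (-0.94) were at the lower end and *Rpl13a* (0.34) and *Rpl12* (0.26) at the upper end, on 1 to 4 UMIs each in mutant replicate 1. *Rpsa* had the lowest FDR there and was at 44.4 and 66.2 CPM against 115.3 and 101.2 (-0.77 ± 0.26, SE; FDR 0.505), where mutant replicate 1 held 73 nuclei and 6 *Rpsa* UMIs.

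**Figure D3:**
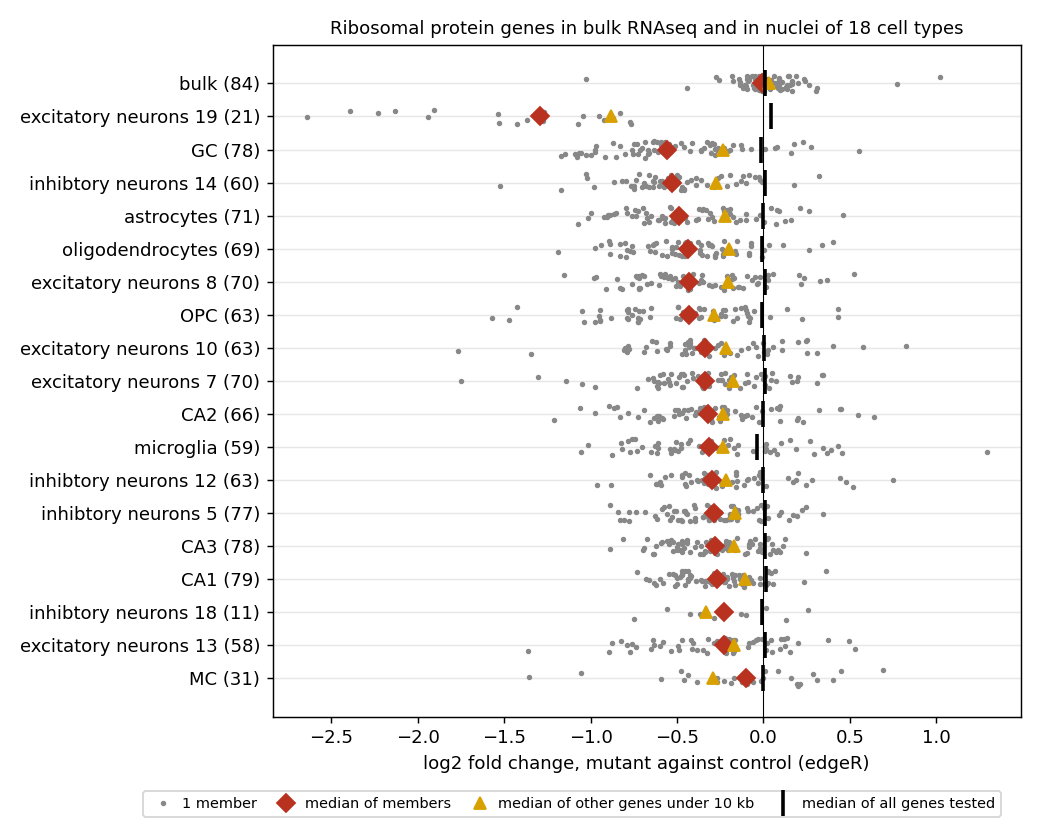
Log2 FC (mutant against control, edgeR) of each ribosomal protein gene in bulk RNAseq and in nuclei of 18 cell types, with the number of members tested in parentheses; diamonds mark the median of members, triangles that of other genes that span less than 10 kb and black bars that of all genes tested. The member median is -0.01 in bulk and below 0 in all 18 types, and other short genes lie below 0 there too.

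The plot of log2 FC by type sets the members beside other short genes. The median span of a member was 3238 bases, against 17367 bases for a gene tested in bulk. In nuclei, other genes that span less than 10 kb had medians of -0.88 in excitatory neurons 19 to -0.11 in CA1, with -0.23 in GC, -0.22 in astrocytes and -0.20 in oligodendrocytes, whereas genes of 100 kb or more had 0.18, 0.15 and 0.17 in these 3. The member median was below that of other short genes in 16 of the 18 types and above it in 2 (MC and inhibtory neurons 18). In bulk RNAseq the median of other short genes was 0.03.

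Members differed in how often they were lower. Of 79 members tested in at least 1 type, 72 had a negative log2 FC in more than 50% of their types, and 5 had a median above 0. *Rps24* was lower in 17 of 17 types, with both mutant samples below both control samples (separated) in 16, *Rpl19* was lower in 16 of 17 and separated in 16, and *Rplp0* was lower in 16 of 16 and separated in 14. Over all genes, 20.6% of tests in the 18 types had this order. These members are at the extreme of the 79, and the types share their samples. At the other end, *Rps29* was lower in 6 of 18 types (median 0.12), *Rps15a* in 3 of 13 (median 0.12) and *Rps18* in 5 of 14 (median 0.11). *Rplp1* (14 of 18 types lower, median -0.33) and *Rpsa* (16 of 17, median -0.64) were on the lower side, while *Rplp2* was lower in 6 of 10 (median -0.07). Values were not tested for differences between members.

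Paralogs named with l were compared across types, since some ribosomal proteins have a second gene with its own expression. Of the 9 in the bulk table, *Rps12l1* and *Rps12l2* are annotated as pseudogene copies of *Rps12*. *Rpl10l*, *Rpl39l* and *Rpl3l*, known mainly from testis or muscle, were at or below 0.81 TPM in every bulk library. *Rpl39l* had 0, 3, 3 and 1 UMIs in the 4 snRNAseq samples. *Rps4l* was at 16.4 to 22.1 TPM. *Rpl7l1*, at 26 to 32 TPM, was well below *Rpl7* (392 to 523.3 TPM), and *Rps27l*, a p53-responsive paralog of *Rps27*, was at 27.4 to 43.7 TPM.

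In nuclei *Rpl22l1* and *Rpl22* were close to one another. Over all nuclei *Rpl22l1* was at 20.8 and 18 CPM in the mutant and 30.8 and 24.5 CPM in the control, and *Rpl22*, which also represses *Rpl22l1* by binding its transcript, at 17.4 and 27.1 against 24 and 28.5 CPM. *Rpl22l1* had its lowest mean over samples in excitatory neurons 10 (16.7 CPM) and its highest among the 18 types in excitatory neurons 19 (52.7 CPM, from 21 to 80.4, on 1 to 11 UMIs a sample) and inhibtory neurons 14 (40.1 CPM, from 32.9 to 51.6), and most other types, at 18.7 to 27.4 CPM, did not differ beyond the spread of their samples. In GC it was at 21.7 and 21 CPM against 37.5 and 29.2 CPM (9 and 72 against 427 and 475 UMIs), with both mutant samples below both control samples. Among the 18 tested types *Rpl7l1* was between 11.7 CPM in CA2 and 40 CPM in inhibtory neurons 14 as a mean over samples. *Rps27l* was highest in inhibtory neurons 14 (28.6 CPM, from 18.8 to 38.4), where all 4 samples lay above every sample of the other tested types, and was lower in the mutant and separated between genotypes in 9 of the 9 types in which it was tested. Over all genes, 20.6% of tests in the 18 types had both mutant samples below both control samples, and the types share their samples.

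**Figure D4:**
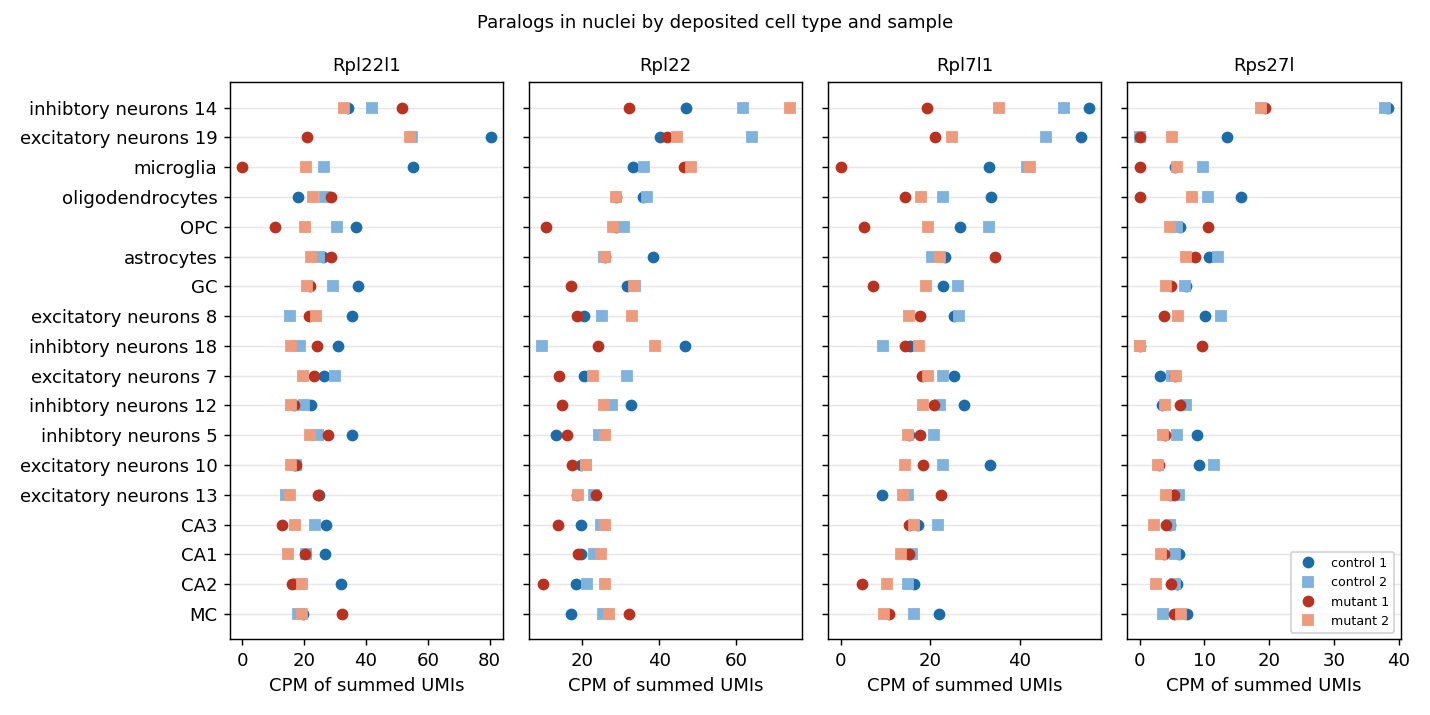
CPM of UMIs summed per sample and deposited cell type for *Rpl22l1*, its parent *Rpl22*, *Rpl7l1* and *Rps27l*; each point is 1 snRNAseq sample. Nuclei labelled inhibtory neurons 14 and excitatory neurons 19 lie to the right for *Rpl22l1*, *Rpl22* and *Rpl7l1*, and the samples of most other types overlap.

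Levels in nuclei were only loosely related to levels in whole tissue. Across the 78 members at 10 TPM or more in bulk that were also in the nuclei table, Spearman's rho between mean bulk TPM and mean nuclear CPM was 0.33, a description across genes that share their libraries. The ratio of nuclear CPM to bulk TPM had a median of 0.083. It was highest for *Rpl5* (1.25, at 41.4 CPM), *Rpl12* (0.983) and *Rpl7l1* (0.618), and lowest for *Rps27* (0.005, at 3.77 CPM), *Rpl23a* (0.007) and *Rpl29* (0.008). UMIs are not divided by transcript length and TPM are, so differences in the ratio between members also hold their transcript lengths.

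The share of sequence found elsewhere was set beside this ratio, with no test. Windows of 64 bases of each member's transcript were searched in the transcripts of all other annotated genes. For the 26 members with at least 50% of windows found elsewhere the median ratio was 0.062, and for the other 52 it was 0.102. *Rpl23a* (82.1% of windows) had a low ratio, and *Rpl7l1* (5.31%) a high one, whereas *Rpl10a* (77.1%) had a ratio of 0.344 and *Rpl29* (46.9%) one of 0.008. Over the last 300 bases of the transcript alone, 100% of the windows of *Rpl29* and *Rps27* were found elsewhere. There the share was 79.7% for *Rpl23a*, 86.1% for *Rpl10a* and 0% for *Rpl7l1*, *Rpl5* and *Rpl12*. *Rpl5* and *Rpl12*, with 48.2% and 48.4% of windows found elsewhere, held 9.63% and 7.15% of the bulk counts of their families, so that their bulk TPM, the denominator of the ratio, leaves out most of the reads of these families. How reads with several matches were treated in snRNAseq was not tested.

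**Figure D5:**
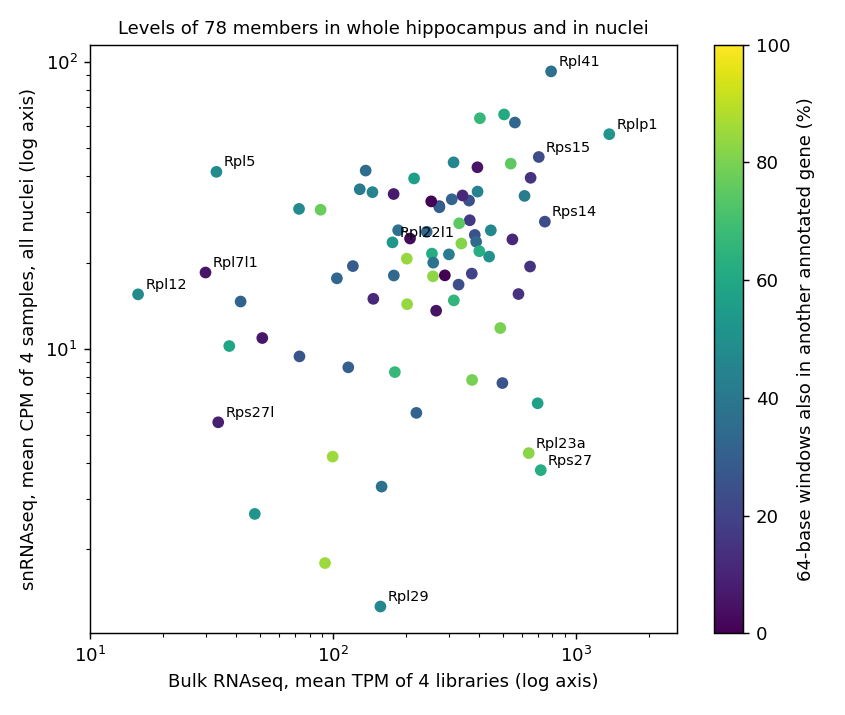
Mean TPM in 4 bulk RNAseq libraries against mean CPM over all nuclei in 4 snRNAseq samples (both log axes) for 78 members; colour gives the share of 64-base windows of the transcript found in other annotated genes. The points form a loose cloud, with *Rpl5*, *Rpl12* and *Rpl7l1* on the left, *Rps27* and *Rpl23a* at the lower right and *Rpl29* at the bottom.

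The relative levels of members were alike across cell types. Spearman's rho of summed member UMIs was 0.98 between GC and CA1, 0.96 between GC and astrocytes, 0.92 between CA1 and oligodendrocytes and 0.98 between astrocytes and oligodendrocytes, as a description over 81 genes that share libraries, gene length and mappability.

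Genes that work with the ribosome were examined as lists. Among ribosomal proteins with other names, such as *Fau*, *Rack1*, *Rpl36al* and *Rps27rt*, 0 of 5 were called in bulk and 0 of 61 tests in nuclei. *Fau*, which encodes a fusion of a ubiquitin-like protein with Rps30, was at 33.5 and 16.3 CPM in mutant GC and 48 and 36.7 CPM in control GC (log2 FC -1.10 ± 0.31, SE; FDR 0.120). *Rack1*, a signalling scaffold on the small subunit, was at 16.7 and 27 against 34.1 and 33.7 CPM in GC (FDR 0.381).

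Translation factors, whose mRNAs partly share the pyrimidine tract, had negative medians in all 18 types, from -0.51 to -0.14, with 316 of 365 tests negative. In GC 3 of 23 fell (FDR under 0.05, which 1.77% of all genes in GC passed), and all 23 had a negative log2 FC. These were *Eef1b2*, an exchange factor of the elongation factor eEF1A (log2 FC -1.18 ± 0.25, SE; FDR 0.047), *Tpt1*, a growth-related protein (-0.96 ± 0.19, SE; FDR 0.045), and *Eif4a2*, an RNA helicase of translation initiation (-0.90 ± 0.18, SE; FDR 0.044). *Eef1a1*, the main elongation factor, did not pass (-0.61 ± 0.17, SE; FDR 0.123). In bulk 0 of 23 were called and the median was -0.01.

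Mitochondrial ribosomal proteins, which build the separate ribosome of mitochondria, were not called in nuclei (0 of 966 tests) or in bulk (0 of 77). Their medians were negative in all 17 types with tested members, from -0.30 to -0.10, with 70.9% of tests negative against 84.3% for the cytosolic members. Ribosome biogenesis factors had 189 of 251 tests negative and 0 called. The list of regulators (mTOR, Larp1, S6 kinases and others) had 77 of 165 tests negative, medians between -0.09 and 0.15, and 0 called in nuclei, and 1 of 13 fell in bulk, where 1.21% of all genes were called. This was *Rps6ka2*, a kinase of the RSK family, at 52 and 52.5 CPM in the mutant against 72.2 and 70.1 CPM in the control (log2 FC -0.45 ± 0.05, SE; FDR 0.029). In GC nuclei it was at 126.7 and 128.6 against 100 and 98.7 CPM (0.36 ± 0.17, SE; FDR 0.319). Mitochondrially encoded genes had 62 of 167 tests negative.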

How the data were processed

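Each assay covered 2 mice of either genotype, grouped by their labels. Bulk reads were mapped to mm10 by the authors with Bowtie2 2.2.9 inside RSEM 1.3.0, who deposited an expected count and a TPM value per gene, and a matrix of signal, the expected count over a factor for each library. Nuclei were processed by the authors with Cell Ranger 3.1.0 and a pre-mRNA index, and they deposited UMI counts per nucleus, a cell type, other annotations of each nucleus and a size factor, a ratio to the other nuclei. Whether counting used strand is not given in the sources used here.

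Expected counts were rounded, and UMI counts summed per sample and deposited cell type. Both were tested in edgeR 4.0.16 (R 4.3.3) with filterByExpr, TMM scaling and the quasi-likelihood test, over all genes, with p-values adjusted by Benjamini-Hochberg and calls at FDR below 0.05. CPM of label checks and paralogs use the total count, and CPM beside an FC in nuclei are after TMM. SE is that of the log2 FC. With 2 samples a group, every sample is given in place of an SD. The deposited nuclei were used as they are, with no further filter and no doublet caller, and the lowest held 1500 UMIs. Alternatives were DESeq2 1.42.0, limma 3.58.1 on log2(signal + 1), other scaling, no filter, a replicate block, left-out samples and, added after seeing the data, family sums and a denominator of genes under 10 kb. A family is a member with annotated genes whose transcripts match it at 95% identity or more (BLAST 2.17.0) over at least 200 bases or 50% of its length. The tests were run on simulated data first.

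Named members are the 5 with the highest bulk TPM, the 3 highest and 3 lowest log2 FC in bulk and in each type described, all paralogs, Rplp0, Rplp1, Rplp2, Rpsa, Fau and Rack1, and the 3 highest and 3 lowest nuclear to bulk ratios. Others (members with the lowest FDR of a type, *Rps7*, *Rps24*, *Rpl19*, *Rps15a*, and single genes of the other lists) were chosen after their values were seen. A few genes that this rule names are not reported here. The members and lists were chosen with earlier results of these data known.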

Additional observations from a re-analysis of the deposited data

How the results depend on the processing

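With 2 samples a group, an exact permutation test of 1 value cannot go below p = 0.333, and the gene-wise tests rest on few degrees of freedom. Of all genes in bulk, 1.21% were called in the main fit, 8.42% under DESeq2 and 1.21% under another scaling (RLE). The share was 1.21% under TMM without member and mitochondrially encoded genes and 1.46% under limma on the authors' matrix. It was 1.32% with family sums, 0.218% with an added FC limit and 0.454% with the replicate block. The count of members called in bulk, 0, stayed at 0 under each of these. It was 2 without the filter on low counts (*Rpl3* and *Rps27*; 2.33% of members, against 6.46% of all genes), and 0 to 8 with 1 library left out. In nuclei 0.218% of all tests over 18 types passed in the main fit, 0.203% under DESeq2 and 0.23% under RLE. The share was 0.217% under TMM without member and mitochondrially encoded genes and 0.244% under total UMIs without TMM. The count of members called over 18 types, 0, stayed at 0 under these and under an FC limit. It was 20 without the filter, 2 to 15 with 1 sample left out, and 44 with a replicate block (4.05% of member tests, against 3.13% of all tests), all lower in the mutant and 27 of them in GC (34.6% of members, against 9.59% of all genes). The replicate numbers alone do not pair the mice, and deviations of equal numbers correlated at 0.19 in bulk and 0.01 to 0.46 in nuclei. The limit of 1500 UMIs left out no nucleus.

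The log2 ratio of the bulk share, -0.03, was -0.060 for TPM and -0.0071 with near-identical copies, and -0.041 to -0.024 with 1 library left out. The mean log2 ratio of the UMI share over 18 types, -0.43, was -0.52 to -0.34 with 1 sample left out, -0.46 in nuclei above the median UMI count and -0.38 as a mean over nuclei. Relative to genes under 10 kb, a total that includes *Malat1*, the mean was -0.31, and the ratio was -0.32 in GC and turned to 0.099 in MC. The median log2 FC of members in inhibtory neurons 14 was 0.06 without control replicate 2, and in microglia -0.91 without mutant replicate 2. Log2 FC of single members changed sign in bulk: *Rpl10* was at -0.038 and *Rpl12* at 0.047 with family sums, and with 1 library left out *Rpl23a* ranged from -0.11 to 0.26, *Rpl41* from -0.018 to 0.26, *Rplp1* from -0.064 to 0.090, *Rps14* from -0.13 to 0.16 and *Rps15* from -0.032 to 0.22. *Rps13* was at 0.018 to 7.06. The cause was not tested. Depth limits single members in mutant replicate 1, where GC held 683 member UMIs in 90 nuclei.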
